A study of Mus musculus with 6 samples.

Results

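The genes described here are the histone H3K4 methyltransferases Kmt2a, Kmt2b, Kmt2c, Kmt2d, Setd1a and Setd1b, their relative Kmt2e, and the shared core partners Wdr5, Ash2l and Rbbp5. They were chosen by name, with earlier results of the sgEgfr against sgRosa comparison known, and all 10 were found among the 35976 genes of the count tables. The libraries are bulk RNA-seq of amygdala neurons; the mice were C57BL/6J males whose age the labels do not give. In the sgEgfr group (3 libraries) an adeno-associated virus carried guides that target the receptor gene Egfr, and in the sgRosa group (3 libraries) it carried guides against Rosa26, a safe-harbour locus that serves as the control. In both groups Cas9 was driven in astrocytes by the GfaABC1D promoter, so the edited cells were not the cells selected for sequencing. The protocol also names guides given to microglia, while the genotype labels of these libraries list the astrocyte guide only. Mice of both groups had more than 2 weeks of expression, then 7 days of tube restraint, fear conditioning for 1 day and extinction training for 3 days, and neurons were enriched magnetically from papain-digested tissue. The comparison asks how the neurons of stressed mice differ when neighbouring astrocytes carry guides against Egfr. Whether the libraries came from different animals is not stated in the labels, and p-values here measure library-to-library spread alone, which may be technical.

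Methylation of lysine 4 of histone H3 marks active promoters and enhancers. Each methyltransferase ends in a SET domain that needs the WDR5, RBBP5, ASH2L and DPY30 proteins to work well, and the different enzymes place the mark at different sites. SETD1A and SETD1B put down most of the trimethyl mark at promoters. KMT2A and KMT2B act with menin at selected promoters, and KMT2C and KMT2D place the monomethyl mark at enhancers together with the demethylase KDM6A. Loss of 1 copy of several of these genes in humans causes neurodevelopmental disorders, KMT2D in Kabuki syndrome and KMT2A in Wiedemann-Steiner syndrome among them.

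Total counts were between 2520426 and 4849404 in the sgEgfr libraries and between 2348897 and 10152812 in the sgRosa libraries. A count of 3 in a library equals 0.619 to 1.19 CPM (reads scaled to a common library size) in sgEgfr and 0.295 to 1.28 CPM in sgRosa, a floor that covers counting error only. All 10 genes stood far above it, the lowest count of any of them being 33. All 12 neuronal markers were detected in every library, and their summed level was 3067 to 4881 CPM in sgEgfr and 1993 to 4963 CPM in sgRosa. Oligodendrocyte markers (8 of 8 detected) summed to 22192 to 56658 CPM in sgEgfr and 23980 to 69725 CPM in sgRosa, so the preparations were not neurons alone. Choroid plexus markers summed to 2220 CPM in sgEgfr replicate 1 and 3445 CPM in sgRosa replicate 3, and to at most 43.5 CPM elsewhere. Egfr itself had 6, 18 and 6 counts in the sgEgfr libraries and 1, 26 and 23 in the sgRosa libraries. These are too few to check the guides in preparations enriched for neurons, in which astrocyte markers were also detected. Areg, which encodes an EGFR ligand, had at most 6 counts in any library.

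Promoter sequences were taken from a RefSeq table (GRCm38.p6, the assembly that mm10 names), in which 6 of the 10 genes were matched. Shown here are the 250 bases before the start of Kmt2d, whose values stood furthest apart between the groups, of Kmt2c, its closest relative in function, whose values overlapped, and of the core partners Wdr5 and Rbbp5, whose values both lay lower in sgEgfr. Each runs 5′ to 3′ on the gene's own strand, and capitals mark CG dinucleotides, the bases that the CXXC domains of KMT2A, KMT2B and CXXC1 recognise when unmethylated. The Kmt2d window is chr15:98871206-98871455 (minus strand), that of Kmt2c chr5:25498784-25499033 (minus strand), that of Wdr5 chr2:27514897-27515146 (plus strand) and that of Rbbp5 chr1:132477117-132477366 (plus strand).
Kmt2d: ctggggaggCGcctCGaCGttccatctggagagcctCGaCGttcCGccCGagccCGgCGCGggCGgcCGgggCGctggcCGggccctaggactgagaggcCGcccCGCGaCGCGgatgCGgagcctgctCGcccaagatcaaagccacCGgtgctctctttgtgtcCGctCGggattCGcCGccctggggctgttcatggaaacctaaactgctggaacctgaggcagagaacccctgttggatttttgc
Kmt2c: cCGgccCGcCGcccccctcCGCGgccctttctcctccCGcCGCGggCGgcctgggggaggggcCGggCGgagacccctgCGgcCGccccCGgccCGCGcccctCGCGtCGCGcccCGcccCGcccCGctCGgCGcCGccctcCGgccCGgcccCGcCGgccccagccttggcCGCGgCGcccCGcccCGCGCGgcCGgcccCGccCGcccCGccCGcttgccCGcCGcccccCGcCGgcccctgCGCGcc
Wdr5: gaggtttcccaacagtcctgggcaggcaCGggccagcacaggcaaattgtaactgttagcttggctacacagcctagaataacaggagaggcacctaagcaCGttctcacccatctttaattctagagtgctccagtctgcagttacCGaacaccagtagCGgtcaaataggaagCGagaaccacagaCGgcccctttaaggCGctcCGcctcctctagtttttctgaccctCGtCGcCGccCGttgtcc
Rbbp5: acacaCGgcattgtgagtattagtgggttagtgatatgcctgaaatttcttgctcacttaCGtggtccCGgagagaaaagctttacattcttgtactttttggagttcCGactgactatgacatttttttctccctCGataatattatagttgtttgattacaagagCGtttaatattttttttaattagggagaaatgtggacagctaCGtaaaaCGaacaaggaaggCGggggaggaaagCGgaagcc
The Kmt2d window held 26 CG dinucleotides, a number reached by 9.59% of 32851 promoter windows of the same length. The Kmt2c window held 48, reached by 0.186% of windows, that of Wdr5 12 (33.5% of windows) and that of Rbbp5 10 (37.8% of windows), against a median of 6 over all windows. CG reads the same on both strands, and these counts describe the sequence only.

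The enhancer enzymes came out differently from each other. Kmt2d (chromosome 15, 98831669 to 98871204, minus strand, mm10) had 239, 227 and 249 CPM in the sgEgfr libraries and 99.8, 112 and 116 CPM in the sgRosa libraries, after scaling by the trimmed mean of M-values (TMM). The groups did not overlap, and the lowest sgEgfr library was far above the highest sgRosa library. These levels rest on 1120, 1017 and 640 reads in sgEgfr and 355, 267 and 1292 reads in sgRosa. The mean was 238 ± 11.2 CPM in sgEgfr and 109 ± 8.47 CPM in sgRosa (SD, n = 3 each), a 2.18-fold difference, or 1.13 on the log2 scale (SE 0.22). The coefficient of variation between libraries was 4.71% in sgEgfr and 7.75% in sgRosa. Counting alone gives 6.12% at the lowest read count, the 267 reads of sgRosa replicate 2, and less in the sgEgfr libraries. Kmt2c (chromosome 5, 25271798 to 25498783, minus strand), which encodes the other enzyme of these complexes, had 91.3, 89.7 and 68.2 CPM in sgEgfr and 93.9, 79.8 and 55.8 CPM in sgRosa. Its libraries spread widely within each group and overlapped between them, and the log2 fold change was 0.12 (SE 0.26). That value was -0.07 without sgRosa replicate 3, the library with the lowest Kmt2c level, and 0.31 without sgRosa replicate 1, the library with the highest.

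Of the enzymes that work with menin, Kmt2a (chromosome 9, 44803355 to 44881296, minus strand) had 63.6, 74.5 and 75.6 CPM in sgEgfr and 60.2, 55.1 and 48.2 CPM in sgRosa. The groups did not overlap, with a narrow margin between sgEgfr replicate 1 and sgRosa replicate 1, with a log2 fold change of 0.39 (SE 0.21). With upper-quartile scaling its groups overlapped. Kmt2b (chromosome 7, 30568858 to 30588726, minus strand) had 11.9, 12.3 and 13.2 CPM in sgEgfr and 12.4, 13.8 and 11.6 CPM in sgRosa. Those values are interleaved, and the log2 fold change of -0.01 (SE 0.24) changed sign among the alternative settings.

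The enzymes of the bulk promoter mark overlapped between the groups. Setd1a (chromosome 7, 127776670 to 127800122, plus strand) had 10.9, 12.5 and 13.6 CPM in sgEgfr and 11.5, 14.2 and 15.1 CPM in sgRosa, a log2 fold change of -0.15 (SE 0.25). Setd1b (chromosome 5, 123142193 to 123168629, plus strand) had 34.5, 41.9 and 34.7 CPM in sgEgfr and 42.2, 22.6 and 30.7 CPM in sgRosa. Its highest and its lowest library were both sgRosa libraries, and the log2 fold change was 0.22 (SE 0.27). It was 0.49 without sgRosa replicate 1, the highest of the 6, and 0.047 without sgRosa replicate 2, the lowest. Kmt2e (chromosome 5, 23434441 to 23504235, plus strand), whose SET domain is not known to methylate H3K4 and whose PHD finger reads the trimethyl mark, had 211, 209 and 207 CPM in sgEgfr and 251, 185 and 222 CPM in sgRosa. The sgEgfr libraries lay inside the sgRosa range (log2 fold change -0.07, SE 0.23). Their coefficient of variation was 1.00%, less than counting alone gives, so it does not measure how even they are. Counting alone gives 4.76% at the lowest read count of the 6 libraries, 442 in sgRosa replicate 2. The coefficient of variation of the sgRosa libraries was 15.2%. Exons of Kmt2e share 972 bases with exons of Srpk2 encoded by the other strand. Since no source used here states whether reads were counted by strand, reads there could not be assigned to either gene with certainty. GENCODE places smaller exon overlaps on the opposite strand at Kmt2a (378 bases), Kmt2c (274 bases) and Setd1a (29 bases), and at Setd1a also a same-strand transcript that shares 3523 bases of exon.

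The core partners lay on the other side. Wdr5 (chromosome 2, 27515157 to 27536535, plus strand), which encodes the subunit that grips the enzymes' WIN motif, had 13.0, 14.95 and 13.6 CPM in sgEgfr and 19.1, 20.05 and 17.6 CPM in sgRosa (log2 fold change -0.44, SE 0.22). Ash2l (chromosome 8, 25815996 to 25847694, minus strand), whose protein with RBBP5 activates the SET domain, had 35.2, 39.0 and 28.4 CPM in sgEgfr and 46.4, 43.0 and 45.3 CPM in sgRosa (-0.39, SE 0.21). Rbbp5 (chromosome 1, 132477365 to 132505659, plus strand) had 22.2, 20.1 and 22.2 CPM in sgEgfr and 23.9, 25.5 and 26.5 CPM in sgRosa (-0.24, SE 0.20). For each of these 3 genes every sgEgfr library was below every sgRosa library. When libraries were scaled by their total alone, the groups of Ash2l and Rbbp5 overlapped and those of Wdr5 did not. These reads are few, from 35 to 67 per sgEgfr library and from 48 to 195 per sgRosa library for Wdr5, where counting alone gives a coefficient of variation of 16.9% at the lowest count.

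**Figure D1:**
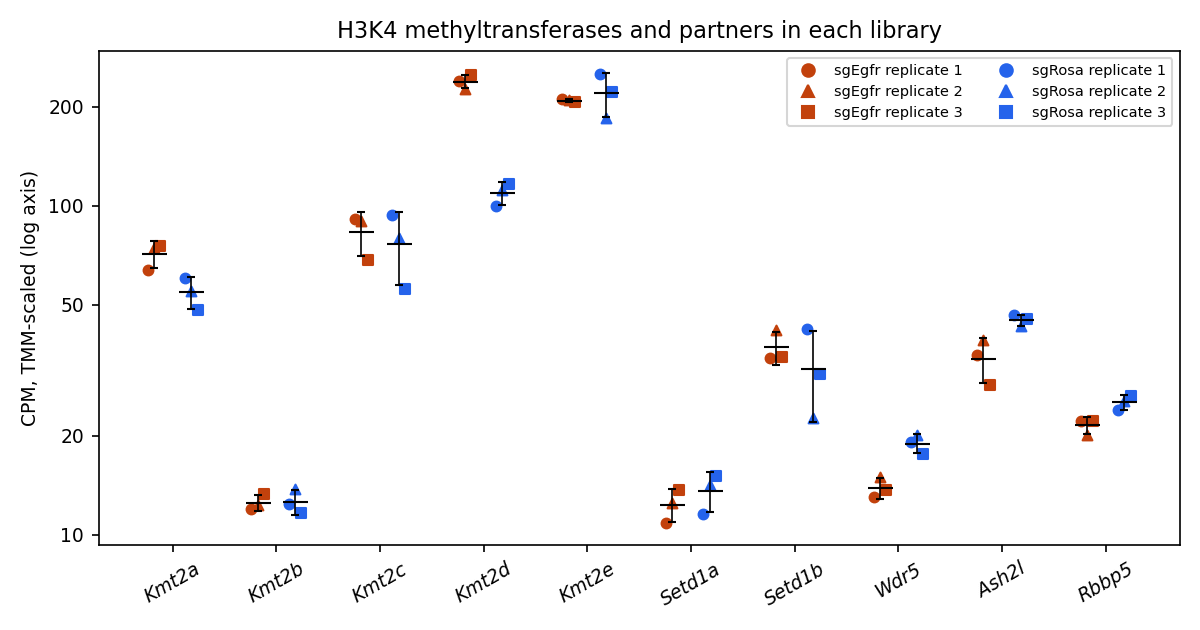
TMM-scaled CPM (log axis) of the 10 genes in each of the 6 libraries, with sgEgfr left of sgRosa for each gene; marker shapes are replicate numbers, and black lines are the mean and SD of 3 libraries. Kmt2d sits between 227 and 249 CPM in sgEgfr and between 99.8 and 116 CPM in sgRosa, a wider gap than for any other gene shown.

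In all, 2 of the 10 genes (Kmt2d and Kmt2a) had every sgEgfr library above every sgRosa library, where 5.8% of the 13159 genes tested did, and 3 of the 10 (Wdr5, Ash2l and Rbbp5) had every sgEgfr library below, where 7.6% did. The genes were chosen with this contrast in view, so these counts are a description. Values above 0 were found for 4 of the 10 and for 46.3% of tested genes, and a fold above 2 for 1 of the 10 (Kmt2d) and for 2.22% of tested genes. The median log2 fold change of the 10 was -0.04, and that of all tested genes was also -0.04. In edgeR's quasi-likelihood fit of all genes, with p-values adjusted by Benjamini-Hochberg, 0 of the 10 and 0% of all genes passed an adjusted p of 0.05, with 811 genes at an unadjusted p under 0.05. The limma-voom test also passed 0 genes, with 1978 at an unadjusted p under 0.05. DESeq2 passed 31 genes higher in sgEgfr, 0.385% of the 8045 genes with a defined adjusted p, and Kmt2d was the only 1 of the 10 among them. It passed 2 genes lower in sgEgfr (0.0249%), and 0 of the 10 were among them.

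Ratios of reads within a library do not depend on scaling or depth. They do not remove a trend on gene length, and Kmt2d has 19931 bases of exon where Rbbp5 has 3930. For each read of Rbbp5 there were 10.8, 11.3 and 11.2 reads of Kmt2d in the sgEgfr libraries and 4.18, 4.38 and 4.39 in the sgRosa libraries. The spread within a group was small beside the gap, at 11.1 ± 0.288 in sgEgfr and 4.32 ± 0.121 in sgRosa (SD, n = 3 each). Counting alone gives Rbbp5 a coefficient of variation of 13.2% at its lowest read count, 57 in sgEgfr replicate 3. Both SDs are smaller than counting alone gives, so they do not measure how even the ratios are. For each read of Kmt2c there were 2.62, 2.53 and 3.66 reads of Kmt2d in sgEgfr and 1.06, 1.40 and 2.08 in sgRosa. Against Kmt2e the ratio was 1.14 ± 0.0610 in sgEgfr and 0.508 ± 0.104 in sgRosa, so Kmt2d had more reads than Kmt2e in every sgEgfr library and fewer in every sgRosa library. The ratios of Kmt2d to each of the other 9 genes did not overlap between the groups. On a log scale the narrowest gap was against Setd1b, with 5.41 as the lowest sgEgfr ratio and 4.94 as the highest sgRosa ratio. All 9 ratios share the Kmt2d reads, so they are not 9 separate observations, and the share over all tested genes was not computed. Rbbp5 itself lay lower in sgEgfr (log2 fold change -0.24), which widens the gap in its ratio.

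**Figure D2:**
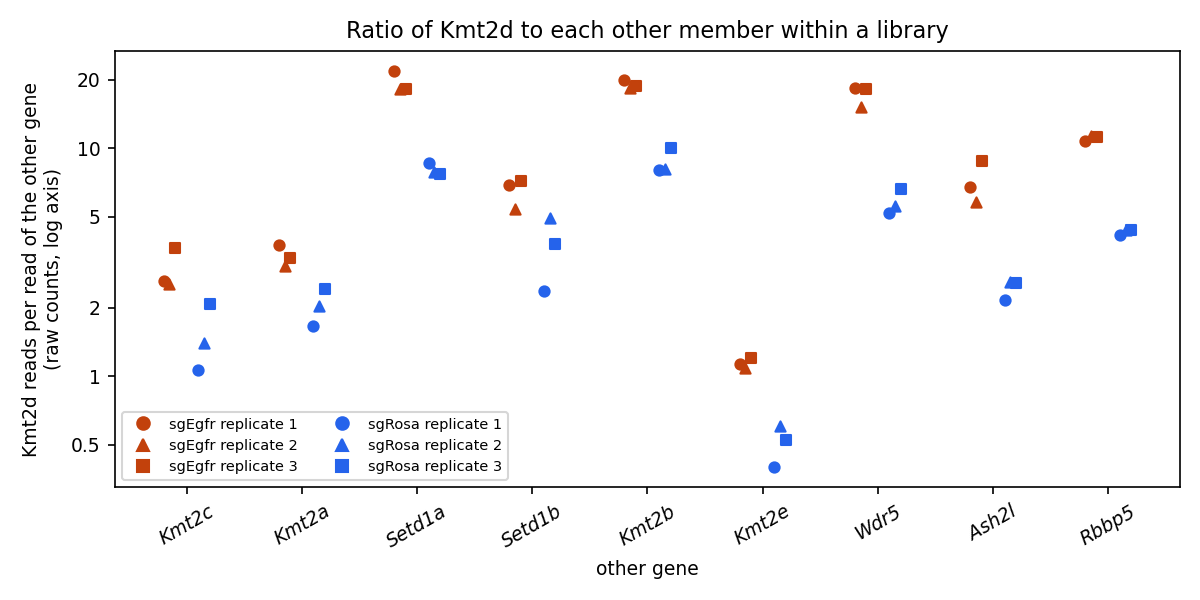
Reads of Kmt2d per read of each other gene within a library (raw counts, log axis), sgEgfr left of sgRosa. For Rbbp5 the 3 sgEgfr libraries lie at 10.8 to 11.3 and the 3 sgRosa libraries at 4.18 to 4.39. For Setd1b they lie at 5.41 to 7.19 in sgEgfr and 2.37 to 4.94 in sgRosa.

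Most of these transcripts are long, and fold changes followed length in these libraries. Over all tested genes the median log2 fold change was -0.30 for the 259 genes with under 1 kb of exon and -0.15 for the 3750 genes of 2 to 4 kb. It was 0.12 for the 2239 genes of 8 to 16 kb and 0.22 for the 302 genes of 16 kb or more. Kmt2d has 19931 bases of exon, Kmt2c 20291 and Kmt2a 16670, so all of them fall in the longest class, where 77.2% of genes had a positive value. In that class Kmt2d ranked 5 of 302, with 1.32% of the genes above it, Kmt2a lay between the median and the upper quartile of 0.44, and Kmt2c lay below the median. By longest transcript Kmt2d has 19823 bases and Kmt2c 14967, so the pair is alike in length only over all exons. Wdr5 (3596 bases) and Rbbp5 (3930 bases) fall in the class of 2 to 4 kb, where the lower quartile was -0.40. Wdr5 was below that quartile and Rbbp5 was between it and the median. Ash2l (8969 bases over all exons, 3702 in its longest transcript) was below the lower quartile of its class by all exons, which was -0.13. The longest transcript of Ash2l has a length within 2 to 4 kb, and its log2 fold change of -0.39 was close to the lower quartile of that class, -0.40. The classes were made by all exons, and none were made by longest transcript.

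With each library's trend on exonic length removed, the log2 fold change of Kmt2d was 0.84 and its groups still did not overlap. That of Kmt2a was 0.13 with overlapping groups, and that of Kmt2c turned to -0.15. Wdr5, Ash2l and Rbbp5 stayed negative, at -0.38, -0.52 and -0.19, with groups that did not overlap. The length of the longest transcript in place of all exons was an alternative chosen after seeing the data. With it Kmt2d was at 0.76, Kmt2a at 0.03 and Ash2l at -0.40. Over the 21 alternative settings the value of Kmt2d ran from 0.76 to 1.19 and was the highest of the 10 genes in each.

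**Figure D3:**
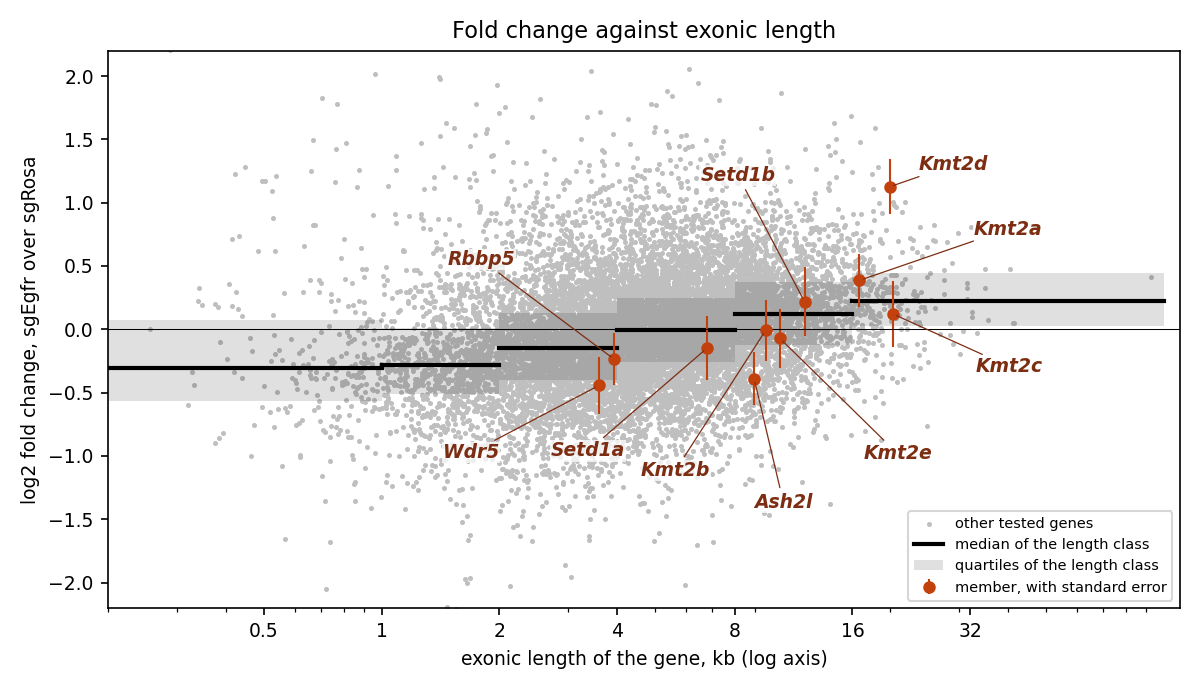
Log2 fold change of sgEgfr over sgRosa against exonic length in kb (log axis) for all tested genes with a matched length (grey), with the median (black lines) and quartiles (shading) of each length class and the 10 genes with standard errors; 27 genes lie outside the axes. Kmt2d stands at 1.13 above a class median of 0.22, while Kmt2c, of like length over all exons but shorter by longest transcript, stands at 0.12.

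Levels of different genes were compared as CPM per kilobase of exon. Kmt2e was highest in both groups, at 19.98 ± 0.201 in sgEgfr and 21.0 ± 3.19 in sgRosa (SD, n = 3 each), and did not overlap with the next gene in either. Kmt2d came next in sgEgfr at 11.96 ± 0.564 CPM per kb, clear of Rbbp5 at 5.47 ± 0.310. In sgRosa Kmt2d was at 5.48 ± 0.425 CPM per kb, below Rbbp5 at 6.43 ± 0.329 and overlapping with Wdr5 at 5.26 ± 0.351. Neighbours from Kmt2a down to Setd1b overlapped in sgEgfr, in the order Kmt2a, Kmt2c, Wdr5, Ash2l and Setd1b, from 4.27 to 3.07 CPM per kb. In sgRosa, Wdr5 overlapped with Ash2l (5.01 ± 0.192), and neighbours from Kmt2c (3.77 ± 0.950) through Kmt2a (3.27 ± 0.359) and Setd1b (2.64 ± 0.817) to Setd1a (2.00 ± 0.275) overlapped. Kmt2b was lowest in both groups, at 1.30 ± 0.0708 in sgEgfr and 1.31 ± 0.115 in sgRosa, and did not overlap with Setd1a above it. Setd1a shares 3523 of its 6795 bases of exon with a same-strand transcript. Its level per kb may depend on how reads there were counted, which no source used here states. With the longest transcript as the length, Ash2l had 9.25 CPM per kb in sgEgfr and 12.1 CPM per kb in sgRosa, above Rbbp5 in both.

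Among the 6 active methyltransferases alone, Kmt2d made up 46.1%, 42.4% and 46.9% of the summed level per kilobase in the sgEgfr libraries and 25.4%, 30.7% and 33.4% in the sgRosa libraries. With all exons as the length it was the largest share in all 6 libraries. By longest transcript Kmt2c was above Kmt2d in sgRosa replicate 1, at 6.28 against 5.04 CPM per kb. Kmt2a was next in 2 of the sgEgfr libraries and in 1 of the sgRosa libraries, with 16.1 ± 1.26% in sgEgfr and 17.7 ± 0.952% in sgRosa, and Kmt2c held 15.5 ± 2.50% in sgEgfr and 20.3 ± 4.02% in sgRosa. Shares sum to a whole, so those of the other genes are not independent of that of Kmt2d.

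**Figure D4:**
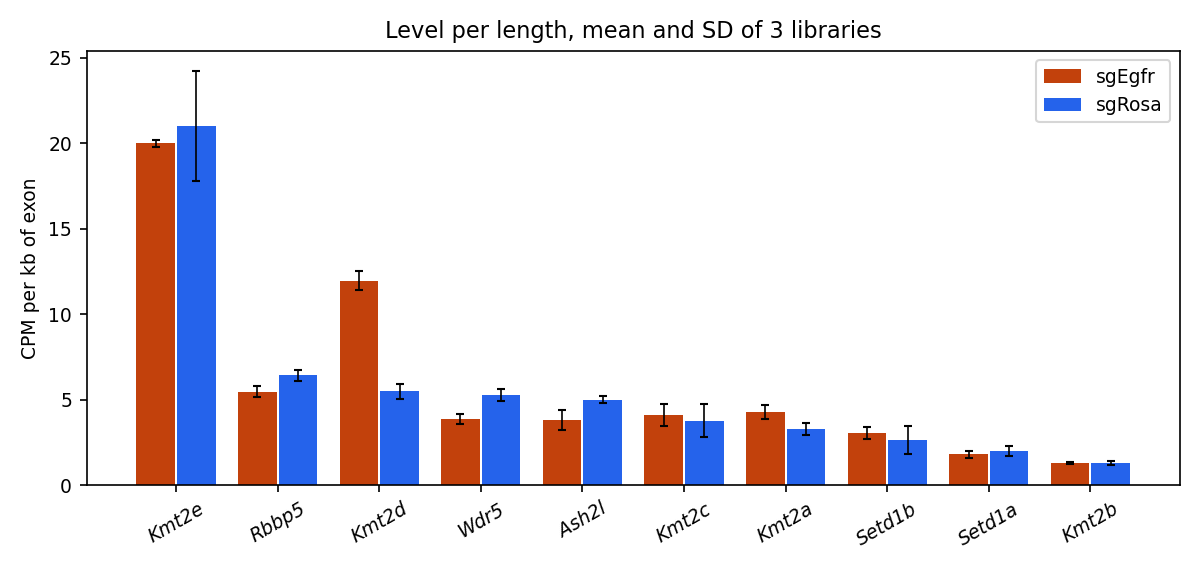
Level per length in CPM per kilobase of exon, as the mean of 3 libraries with SD bars, sgEgfr left of sgRosa, ordered by the sgRosa mean. Kmt2d stands at 11.96 in sgEgfr and 5.48 in sgRosa, between Kmt2e and the other genes in sgEgfr and among the core partners in sgRosa.

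Further subunits of the same complexes, 13 genes, were all tested. By edgeR over all genes 0 passed in either direction, 7 had positive and 6 negative log2 fold changes, and the median was 0.04. Dpy30, the remaining core subunit, averaged 24.4 ± 2.21 CPM in sgEgfr and 35.8 ± 3.60 CPM in sgRosa (log2 fold change -0.55, SE 0.21, edgeR adjusted p = 0.781, all sgEgfr libraries below all sgRosa libraries). It has 1146 bases of exon, a length class with a median of -0.28. Of the partners particular to Kmt2c and Kmt2d, the small subunit gene Pagr1a averaged 22.9 ± 3.13 CPM in sgEgfr and 31.8 ± 2.33 CPM in sgRosa (-0.48, adjusted p = 0.781, also without overlap). The H3K27 demethylase gene Kdm6a was at -0.27, the coactivator gene Ncoa6 at -0.04 and Paxip1, whose protein also acts in DNA repair, at 0.04, and their groups overlapped. Menin (Men1) was at -0.17 and Psip1, which encodes the chromatin tether LEDGF, at 0.24. Of the Setd1a and Setd1b partners, Cxxc1, which encodes the CpG-binding subunit, was at -0.32 without overlap, Wdr82 at 0.07 and Hcfc1, also a partner of Kmt2a and Kmt2b, at 0.08. The edgeR adjusted p-values of the genes named here lay between 0.781 and 0.984.

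Enzymes that remove the mark did not pass either. Of 8 demethylase and partner genes, 0 passed by edgeR, 8 had positive log2 fold changes and the median was 0.21. A positive value was found for 46.3% of all tested genes. The list had a median exonic length of 6397 bases, against 4644.5 over all tested genes. The lysine-specific demethylase gene Kdm1a averaged 16.3 ± 1.64 CPM in sgEgfr and 13.4 ± 1.112 CPM in sgRosa (0.28, adjusted p = 0.833, without overlap). The trimethyl demethylase genes Kdm5a (0.13), Kdm5b (0.00) and the X-linked Kdm5c (0.54, adjusted p = 0.795) overlapped between groups. Kdm5c had 45.9, 46.4 and 45.2 CPM in sgEgfr and 23.6, 48.5 and 23.3 CPM in sgRosa, so its difference rested on 2 of the sgRosa libraries.

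Of 13 genes for readers of methylated H3K4, 0 passed, 10 were positive and the median was 0.09. Of 18 tested methyltransferase and PRC2 genes for other histone positions, 0 passed, 12 were positive and the median was 0.35, with a median exonic length of 7778 bases. Of 9 histone acetyltransferase genes, 0 passed and 5 were positive (median 0.10). Crebbp, which encodes the CBP acetyltransferase that works at enhancers, had 458, 387 and 442 CPM in sgEgfr and 300.3, 282 and 240.3 CPM in sgRosa. Its groups did not overlap (log2 fold change 0.65, SE 0.25, adjusted p = 0.781), and it has 13540 bases of exon. Its paralogue Ep300 had 11.7, 14.7 and 11.3 CPM in sgEgfr and 11.5, 10.9 and 9.36 CPM in sgRosa, with overlap (0.26, adjusted p = 0.863). Over all 61 related genes tested, 42 had positive values, where 46.3% of all tested genes did, and the largest was 0.86, below the 1.13 of Kmt2d. The median exonic length of the 61 was 6341 bases, against 4644.5 over all tested genes. Their median log2 fold change was 0.10. It was 0.02 with the trend on exonic length removed and -0.001 with that on longest transcript removed, where that of all tested genes was -0.01 in both.

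**Figure D5:**
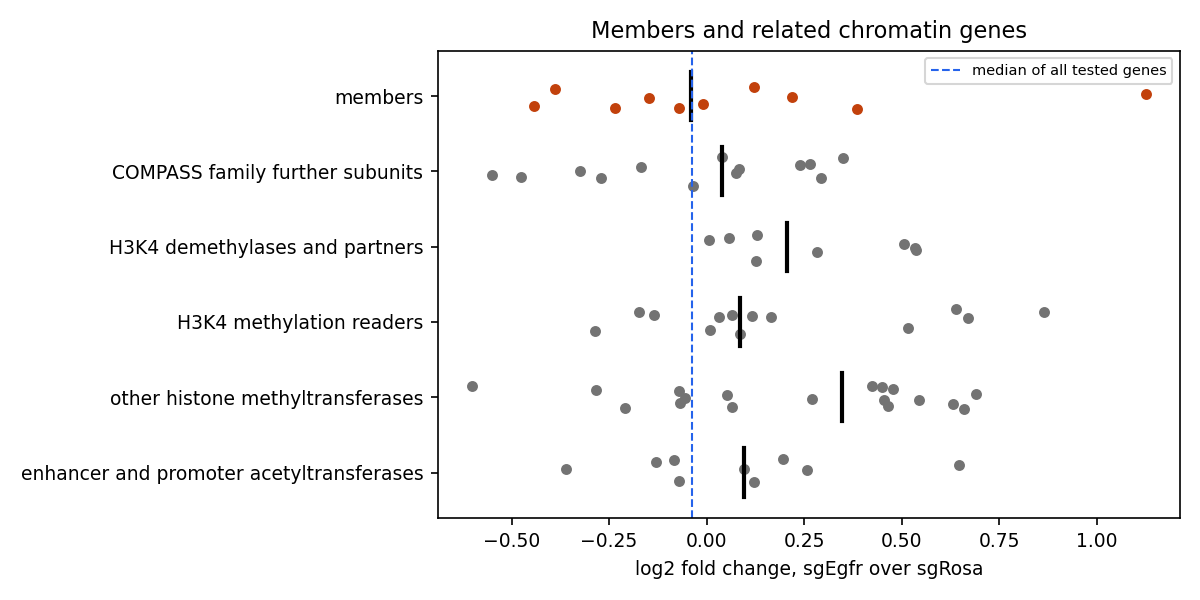
Log2 fold change of sgEgfr over sgRosa for the 10 genes (top row) and each related list, 1 point a gene; black bars are list medians and the dashed line is the median of all tested genes (-0.04). Kmt2d at 1.13 lies to the right of every related gene.

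The makeup of the libraries was set beside these values. The ranges of the summed levels overlapped between the groups for every marker list, but several lists lay to one side gene by gene. Log2 fold changes were positive for 12 of 12 neuronal markers (median 0.47), 8 of 8 microglia markers (median 1.36) and 5 of 5 red blood cell markers (median 1.78), and for 0 of 8 oligodendrocyte markers (median -0.83). Astrocyte markers were at 458 to 1605 CPM in sgEgfr and 804 to 1460 CPM in sgRosa, microglia markers at 31.95 to 458 CPM in sgEgfr and 62.2 to 156 CPM in sgRosa, and endothelial markers at 999 to 1173 CPM in sgEgfr and 552 to 2251 CPM in sgRosa. Red blood cell markers were at 586 to 4047 CPM in sgEgfr and 403 to 1070 CPM in sgRosa, and nuclear long noncoding RNAs at 2774 to 4314 CPM in sgEgfr and 3093 to 12542 CPM in sgRosa. All astrocyte, microglia, endothelial and red blood cell markers had counts in every library, and 2 of the 6 choroid plexus markers were at 0 in at least 1 library. Mitochondrially encoded genes took 11.5% to 14.9% of counts in sgEgfr and 10.3% to 29.8% in sgRosa, the highest being sgRosa replicate 1. With the neuronal marker mean as a covariate the log2 fold change of Kmt2d was 1.05, and with the oligodendrocyte marker mean it was 1.06. Kmt2c was higher under these covariates than without them, at 0.45 with the neuronal and 0.38 with the oligodendrocyte mean. Wdr5 was at -0.36 and -0.39 under the same covariates, Ash2l at -0.32 and -0.33, and Rbbp5 at -0.30 and -0.29. Without both libraries that held choroid plexus RNA, Kmt2d was at 1.18 and Kmt2c at -0.13. The part of the other marker lists and of mitochondrial reads in these values was not tested. In bulk RNA, fewer cells of a type and less RNA per cell cannot be told apart.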

How the data were processed

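Libraries were grouped by their titles. The authors deposited raw read counts per gene with no normalization, as 1 table per library and as a combined table whose 6 matching columns held the same values. A further 3 columns of it matched no sample's labels and were not used. Per the submitters' processing notes the tools included fastp 0.23.2, STAR 2.7.5c, featureCounts 2.0.1 and edgeR 3.42.4 with build mm10; no source used here names the annotation, options or strand setting. NEBNext libraries were made from 5 ng of RNA, per the labels' protocols; such input is amplified, and without molecular identifiers low counts cover counting error only.

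The genes and lists were chosen with earlier results of these data known. Genes passing filterByExpr (minimum count 10, minimum total 15) were tested, 13159 in all, by edgeR 4.0.16 (R 4.3.3) with TMM scaling, the robust quasi-likelihood test and Benjamini-Hochberg adjustment at 0.05. The members were part of this fit, but since they were chosen with this contrast known, whether they passed is given as a description and supports nothing. Standard errors were derived from the F statistic. Named genes were the 10 members, Egfr, Areg, 16 related genes set by role and the 5 genes nearest to Kmt2d in mean-centred log2 CPM (prior count 2), with predicted genes passed over. Exonic lengths and positions are from GENCODE for GRCm38 and matched 97.6% of tested genes; length trends were removed by lowess (span 0.3) and tested with limma 3.58.1. All 134 listed genes were found, 4 under older symbols. Alternatives were other scalings, filters, DESeq2 1.42.0, limma-voom, a replicate block, marker covariates, length corrections and leaving libraries out. No 2 libraries agreed within sampling noise (lowest chi-square per degree of freedom 9.53). The methods were tested on simulated data.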

Additional observations from a re-analysis of the deposited data

How the results depend on the processing

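Of 613 values recomputed under an alternative, 563 stayed within the spread between libraries (1.5 times for counts). Genes passing higher and lower were 0 and 0 under every edgeR and limma alternative (381 to 2746 genes at an unadjusted p under 0.05), and 31 and 2 by DESeq2 (787). Scaling by library total left 3 members without overlap (12.5% of tested genes), against 5 (13.4%). The number was 4 with the length trend removed (11.7%) or upper-quartile scaling (13.7%) and 6 with longest-transcript lengths (10.8%). Leaving out each library gave 5 to 7 (18.9% to 39.6% of tested genes), the most without sgRosa replicate 1 (20.8%). The share of 39.6% was that without sgRosa replicate 3, where the number was 5. Without both choroid plexus libraries it was 5 as well, where 47.7% of tested genes did not overlap. With the length trend removed, log2 fold changes were 0.13 for Kmt2a, -0.15 for Kmt2b and 0.84 for Kmt2d. With longest-transcript lengths, chosen after seeing the data, they were 0.034 for Kmt2a, -0.27 for Kmt2b, -0.20 for Kmt2c, 0.76 for Kmt2d and -0.28 for Kmt2e, with a median of -0.24. By construction both remove what follows length. The neuronal covariate put Kmt2c at 0.45. The cause was not tested. The signs of Kmt2b, Kmt2c, Kmt2e, Setd1a and Setd1b depended on the setting, those of Kmt2a, Kmt2d, Wdr5, Ash2l and Rbbp5 held in the 21 settings tried, and the median of the 10 was 0.03 without sgRosa replicate 1.

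Levels per kb rest on the denominator. Without mitochondrially encoded genes they were, in sgEgfr and sgRosa, 5.11 and 3.92 (Kmt2a), 1.56 and 1.57 (Kmt2b), 14.3 and 6.56 (Kmt2d), 23.9 and 25.2 (Kmt2e), 2.17 and 2.40 (Setd1a), 4.62 and 6.30 (Wdr5), 4.57 and 6.00 (Ash2l), and 6.55 and 7.71 (Rbbp5); Kmt2c and Setd1b in sgEgfr were 4.90 and 3.68. By longest transcript they were 1.47 and 1.49 (Kmt2b), 5.55 and 5.11 (Kmt2c), 28.5 and 29.98 (Kmt2e), 4.18 and 3.59 (Setd1b), 4.80 and 6.54 (Wdr5), 9.25 and 12.1 (Ash2l), and 6.35 and 7.47 (Rbbp5). Kmt2e in sgEgfr, with its small SD, was 19.8 by upper-quartile scaling, 20.2 with the stricter filter (at least 1 CPM in 3 libraries and a mean count of 20), 19.6 without both choroid plexus libraries and 19.6 to 20.7 leaving out each library.

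Whether the replicate numbers pair the libraries could not be settled, since deviations from the mean of 3 libraries are tied to each other. Deviations of same-numbered libraries correlated at -0.03, 0.48 and 0.28. The best match of sgEgfr replicates 2 and 3 was the same-numbered sgRosa library, and that of sgEgfr replicate 1 was sgRosa replicate 3 (0.21). With the replicate block 0 genes passed by edgeR (1316 at an unadjusted p under 0.05, against 811 without it), and Kmt2d was at 1.13. Depth limits Kmt2b, Setd1a and Wdr5 most, with 33, 34 and 35 reads in the lowest library.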

Other observations

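The tested genes whose pattern over the 6 libraries lay nearest to that of Kmt2d, by root mean square distance of mean-centred log2 CPM, were Eln (elastin, 0.114), Mcu (the mitochondrial calcium uniporter, 0.119), Taok1 (a kinase, 0.130), Dennd5b (0.146) and Ube2v2 (a ubiquitin-conjugating enzyme variant, 0.149). Choosing by likeness to Kmt2d fixes their direction, so it is no result. Taok1 was the most abundant, at 858, 798 and 826 CPM in sgEgfr and 392, 489.9 and 452 CPM in sgRosa. Their exonic lengths ran from 6936 bases in Mcu to 18081 in Dennd5b. Among the other H3K4 genes Kmt2a was nearest to Kmt2d, at a distance of 0.411, more than that of any gene named here. Among the 10 genes, Wdr5 and Ash2l were nearest to each other, at 0.140, while Rbbp5 was nearest to an enzyme gene, Setd1a, at 0.139. These distances compare differences between libraries and say nothing of levels.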
